A study of Mus musculus with 45 samples.

Results

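The genes encoding mitochondrial ribosomal proteins were taken as the rows of the deposited liver count tables whose symbol starts with Mrpl or Mrps followed by a digit. The pattern found 76 of the 23227 genes in the tables, 47 named for the large and 29 for the small subunit, and all 76 were among the 14067 genes with enough reads to test. Reads per gene were counted in polyA RNA from livers of wild type C57BL/6J mice, all killed at 24 weeks of age after an overnight fast. Mice given metformin in their drinking water, at 270 mg per kg of lean body mass per day, formed 1 group of 3 libraries on each of 3 diets, namely a high-fat diet (HFD) for 16 weeks, an HFD for 6 weeks, and chow. Mice killed 15, 30, 60 or 120 min after an intraperitoneal injection of 1 U/kg of insulin formed 4 groups on the 16-week HFD and 4 on chow, with 3 libraries each apart from 6 at 30 min on the 16-week HFD. The basal groups, with neither drug, had 3 libraries on each of the 3 diets, which gave 45 libraries in 14 groups. HFD feeding lasted from an age of 8 weeks in the 16-week groups and from 18 weeks in the 6-week groups, so the length of feeding and the age at its start cannot be told apart. Metformin was begun at 8 or at 18 weeks of age, and which of these applied to the chow group is not given in the sources used here. No label ties a library to a mouse, so the p-values below measure the spread between these libraries. Unless stated otherwise, they come from 1 fit in which all 14 groups share an estimate of the spread. They therefore do not measure the spread of the compared groups alone.

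Mitochondria make a small set of respiratory chain proteins on their own ribosomes, whose RNAs come from the mitochondrial genome and whose proteins are all encoded in the nucleus, made in the cytosol and imported. Many of these proteins descend from bacterial ribosomal proteins, and the mammalian mitoribosome carries further ones that bacteria lack. Hepatocytes are rich in mitochondria, and metformin is best known for acting on complex I of the respiratory chain, several subunits of which the mitoribosome translates. Subunits are assigned here by symbol, although structural studies place Mrps30 and Mrps18a in the large subunit, and Mrps36 has been found in the 2-oxoglutarate dehydrogenase complex.

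The 76 genes lie on 17 chromosomes, and their levels varied together across libraries, so their promoters are described first. A 300-base promoter window, from 250 bases before to 50 bases after an annotated start, was given in RefSeq (GRCm38.p6) for 67 of the 76 genes, in 73 windows. The following 4 windows are shown 5′ to 3′ on the gene's strand. Mrpl12 had the highest level of the family, and Mrps18c and Mrps16 were higher with metformin. Mrps2 was the only member called with metformin on chow, where it was lower. Capitals mark matches, on either strand, to CGCNTGCG, the core of the motif of nuclear respiratory factor NRF1, or to CCGGAAG, a core of the motif of ETS factors such as GABP.
Mrpl12, chr11:120484387-120484686, plus strand: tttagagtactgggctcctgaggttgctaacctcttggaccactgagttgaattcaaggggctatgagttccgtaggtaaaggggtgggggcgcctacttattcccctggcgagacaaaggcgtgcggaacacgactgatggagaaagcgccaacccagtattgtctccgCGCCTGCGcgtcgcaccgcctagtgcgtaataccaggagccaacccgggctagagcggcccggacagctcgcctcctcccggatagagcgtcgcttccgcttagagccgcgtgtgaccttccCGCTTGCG
Mrps16, chr14:20393441-20393740, minus strand: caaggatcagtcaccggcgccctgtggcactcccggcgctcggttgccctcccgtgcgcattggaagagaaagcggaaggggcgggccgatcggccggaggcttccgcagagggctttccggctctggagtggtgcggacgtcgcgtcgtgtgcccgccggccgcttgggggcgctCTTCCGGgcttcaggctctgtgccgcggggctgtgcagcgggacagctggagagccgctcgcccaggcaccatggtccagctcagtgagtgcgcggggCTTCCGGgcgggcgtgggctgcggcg
Mrps18c, chr5:100798509-100798808, plus strand: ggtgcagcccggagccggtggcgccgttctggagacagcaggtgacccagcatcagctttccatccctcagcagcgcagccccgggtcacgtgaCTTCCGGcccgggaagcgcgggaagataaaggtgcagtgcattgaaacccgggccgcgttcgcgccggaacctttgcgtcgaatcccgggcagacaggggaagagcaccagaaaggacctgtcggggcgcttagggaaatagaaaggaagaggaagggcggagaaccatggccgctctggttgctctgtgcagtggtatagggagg
Mrps2, chr2:28467816-28468115, plus strand: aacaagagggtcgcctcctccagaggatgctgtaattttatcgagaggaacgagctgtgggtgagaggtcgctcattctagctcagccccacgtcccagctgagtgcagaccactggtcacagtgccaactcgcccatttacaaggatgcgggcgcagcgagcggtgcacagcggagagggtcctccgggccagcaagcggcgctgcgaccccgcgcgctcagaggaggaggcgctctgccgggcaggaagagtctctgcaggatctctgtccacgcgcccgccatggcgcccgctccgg
The Mrpl12 window held 2 matches to the NRF1 core, the Mrps16 window shown held 2 to the ETS core, and that of Mrps18c held 1 to the ETS core. A second annotated window of Mrps16, chr14:20393585-20393884, held no match to either core, nor did the Mrps2 window. The windows of Mrpl20, Mrpl24, Mrpl41 and Mrps10, also higher with metformin as given below, held no match to either core. Those of Mrpl9, Mrpl21 and Mrpl27, likewise higher, held 1 match each, to the NRF1 core in Mrpl9 and the ETS core in the others. Whether a match goes with the metformin difference was not tested. Over the family, 19 of 73 windows (26%) held the NRF1 core, against 15.2% of the windows of the other tested genes and 8.21% of all windows of this length. The ETS core was in 24 of the 73 windows (32.9%), against 15.3% of the windows of the other tested genes and 8.86% of all. A match is a run of letters and no evidence of binding.

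Levels per kilobase of exon, in CPM (counts scaled to the size of the library, with TMM) per kb, spread over a wide range within the family. Mrpl12, a stalk protein of the large subunit, stood highest with a mean of 102 CPM per kb over the 45 libraries (range 76.7 to 218), followed by Mrpl52 with 63.1, Mrpl14 with 55.8, Mrpl30 with 53.8 and Mrpl27 with 51.6 CPM per kb. The lowest means were those of Mrps25 with 1.41, Mrpl19 with 2.42, Mrpl1 with 5.53, Mrpl35 with 5.78 and Mrpl41 with 6.43 CPM per kb. The annotated exon lengths of 4 of these genes were among the longest of the family (Mrps25 6065, Mrpl19 4996, Mrpl1 4170 and Mrpl35 3695 bases), against a family median of 1053 bases. The family's extremes of length were Mrps21, at 407 bases, and Mrpl17, at 6712 bases. The fewest reads of any member in any library were 79 and the median was 532.

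**Figure D1:**
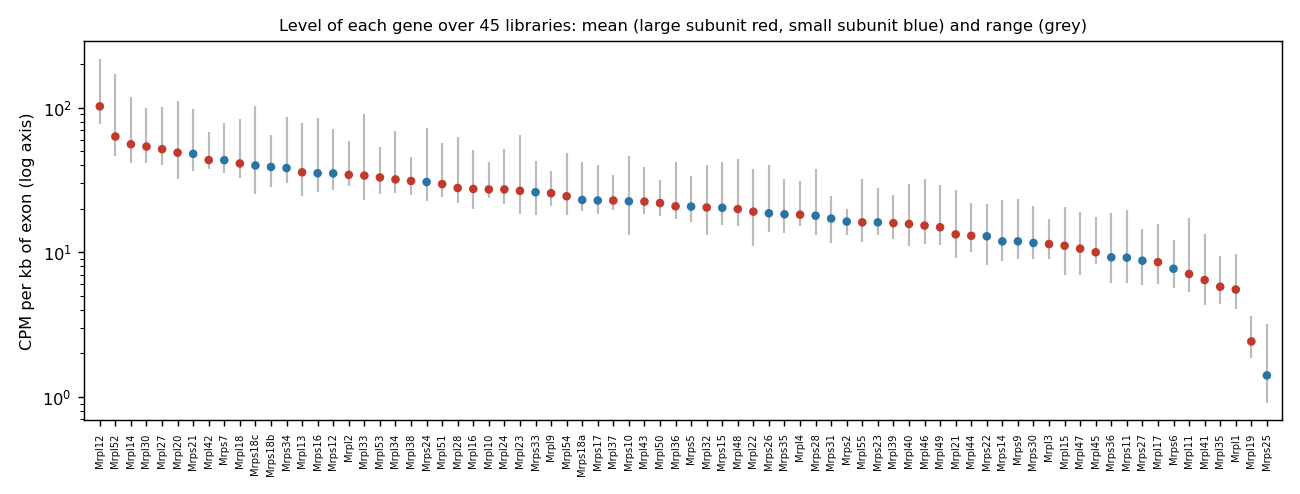
Level of each of the 76 genes in CPM per kb of exon on a log axis, with the mean over 45 libraries as a point and the lowest and highest library as the ends of a grey line. Mrpl12 leads at 102 CPM per kb and Mrps25 is lowest at 1.41.

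Reads could not be assigned to 1 gene with certainty for 16 members. Exons of 7 of them overlap those of an opposite-strand neighbour (Mrpl19, Mrpl24, Mrpl41, Mrpl48, Mrpl49, Mrps25 and Mrps27), and whether the counting used strand is not given in the sources used here. Mrpl53 and Mrps6 share bases with a gene on the same strand. At least 20% of the 40-base words of Mrpl19, Mrpl22, Mrpl24, Mrpl27, Mrpl43, Mrpl47, Mrpl53, Mrps18b, Mrps18c, Mrps25 and Mrps34 also occur in another gene, so 11 members share sequence in that way. Mrps25 shares 3536 exon bases with Nr2c2, and Mrpl41 shares 1002 with Wdr85.

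The summed CPM of the 76 genes was highest in the metformin groups. On the 16-week HFD it was 3709, 2171 and 2283 CPM in metformin livers, against 2164, 1873 and 1784 CPM in basal livers. On the 6-week HFD it was 2163, 2294 and 2243 CPM with metformin, against 1884, 1917 and 1899 CPM without. On chow it was 2134, 2189 and 2136 CPM with metformin, against 2053, 2011 and 1910.4 CPM without. On each diet every metformin library lay above every basal library, and the first metformin library on the 16-week HFD stood apart from the other 44 libraries, which ran from 1605 to 2294 CPM. Depth does not mark out that library, which held 21.1 M counted reads where the 45 libraries held 18.2 to 50.3 M. In it all 76 members were above the mean of the other 2 metformin libraries of its group, by a median of 0.74 on the log2 scale, against medians of 0.37 for 5440 other tested genes of 608 to 2427 bases and 0.54 for 2031 of them closer in length to the members.

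**Figure D2:**
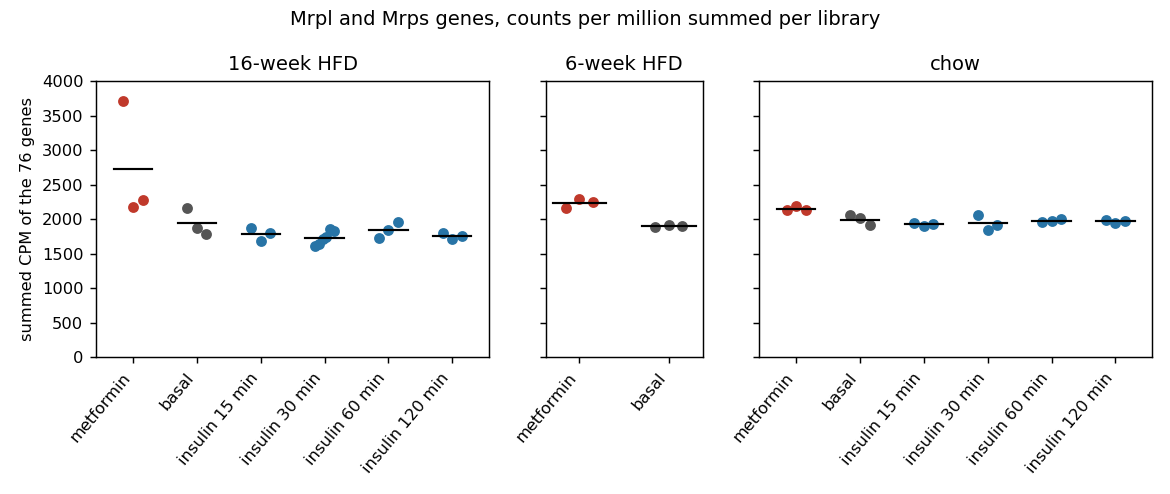
Summed CPM of the 76 genes in each library (points) with the group mean (bar), on the 16-week HFD, the 6-week HFD and chow. The first metformin library on the 16-week HFD lies at 3709 CPM, and all 44 others lie between 1605 and 2294 CPM.

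The metformin libraries also differed from the others by gene length. In all 9, longer genes lay lower relative to their own average over the libraries, with Spearman coefficients across genes of -0.61 (the first library on the 16-week HFD) to -0.13. The basal libraries ran from -0.22 to 0.15 on the 16-week HFD, from 0.09 to 0.17 on the 6-week HFD and from -0.01 to 0.12 on chow. As most members are short, the shares and medians of the main comparisons are also given for a length class, the 5440 other tested genes with exon lengths between the members' 10th and 90th percentiles (608 to 2427 bases). That class has a median length of 1652 bases against 1053 for the members, and a narrower class between their 25th and 75th percentiles (2031 genes) has a median of 1209. Results that change are given again with a smooth trend in length and GC content removed from each library. Whether the trend belongs to the treatment or to the preparation of the libraries cannot be told apart, since the metformin libraries are the treated ones.

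Livers of metformin-treated mice on the 16-week HFD had higher levels of most mitochondrial ribosomal protein genes than basal livers on that diet. Of the 76 members, 62 were called higher (81.6%) and none lower by edgeR's quasi-likelihood test with Benjamini-Hochberg adjustment over all tested genes at a false discovery rate of 0.05, against 28.4% of all genes called in either direction and 29.6% of the length class called higher. The length class has a longer median than the members, so shares are also given by length. Between 500 and 1000 bases 25 of 29 members were called higher, against 48.3% of the other genes. Between 1000 and 1500 bases 19 of 23 members were, against 36.4% of the other genes. The members' median log2 fold change was 0.50, that of the length class 0.23, that of the narrower length class 0.35 and that of all genes -0.01. Both subunits took part to a like extent, with 38 of 47 large-subunit genes (median 0.52) and 24 of 29 small-subunit genes (median 0.48) higher.

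Mrpl20, a large-subunit protein with a bacterial counterpart (mm9 chr4:155177727-155182938), had the smallest adjusted p. It measured 73.5, 43.2 and 44.4 CPM in metformin livers, against 31.7, 26.5 and 24.3 CPM in basal livers. The groups do not overlap, and the log2 fold change was 0.97 (SE 0.14, adjusted p = 1.03e-05). Mrps18c, a small-subunit protein of bacterial descent (mm9 chr5:101227778-101233486), had the largest change, with 51.2, 23.7 and 26.0 CPM in metformin livers, against 18.8, 14.8 and 14.1 CPM in basal livers. Its log2 fold change was 1.08 (SE 0.18, adjusted p = 7.24e-05), again with no overlap, and 28.3% of its 40-base words occur in other genes.

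Mrpl41, which bacteria lack (mm9 chr2:24827990-24830618), measured 32.3, 20.2 and 21.0 CPM in metformin livers, against 15.1, 13.1 and 12.5 CPM in basal livers. Its log2 fold change was 0.85 (adjusted p = 2.57e-05 by edgeR). Whether reads in its overlap with an opposite-strand neighbour were included or dropped is not given in the sources used here. Mrpl24 averaged 37.8 ± 10.0 CPM with metformin and 22.7 ± 3.65 CPM without (SD, n = 3 each), a log2 fold change of 0.74 with an adjusted p of 1.83e-05 from the fit across all genes. Mrps10 averaged 39.5 ± 12.9 CPM with metformin and 22.9 ± 1.92 CPM without (SD, n = 3 each), a log2 fold change of 0.79 with an adjusted p of 9.46e-05 from the same fit. In each of these 5 genes the first metformin library was the highest of the 6, and the other 2 metformin libraries also lay above every basal library. All metformin libraries lay above all basal libraries for 36 of the 76 members, against 16.7% of all genes and 26.3% of the length class. Of the 14 members that were not called, Mrps2 alone had a negative log2 fold change (-0.16).

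The size of this difference rested on the first metformin library. Without it 17 members were called higher and none lower, against 11.5% of all genes called and 10.9% of the length class higher, and the members' median log2 fold change was 0.20 beside 0.09 for the length class. The 5 genes named above were among the 17, with log2 fold changes of 0.67 for Mrpl20, 0.65 for Mrps18c, 0.61 for Mrpl41, 0.50 for Mrpl24 and 0.49 for Mrps10. No other single library moved the count by more than 1.5 times. With the length and GC trends removed and all libraries kept, 29 members were higher and 1 lower (median 0.22), against 17.3% of all genes called. With the trends removed and the first library left out as well, 6 members were higher and 1 lower (median 0.10), 9.21% of the family against 6.44% of all genes called. Of the 5 genes named above, Mrpl41 (0.66), Mrpl20 (0.49), Mrpl24 (0.36) and Mrps10 (0.32) were still called there, and Mrps18c (0.35) was not. A fit of the 6 libraries alone called no member and 11 genes in all.

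**Figure D3:**
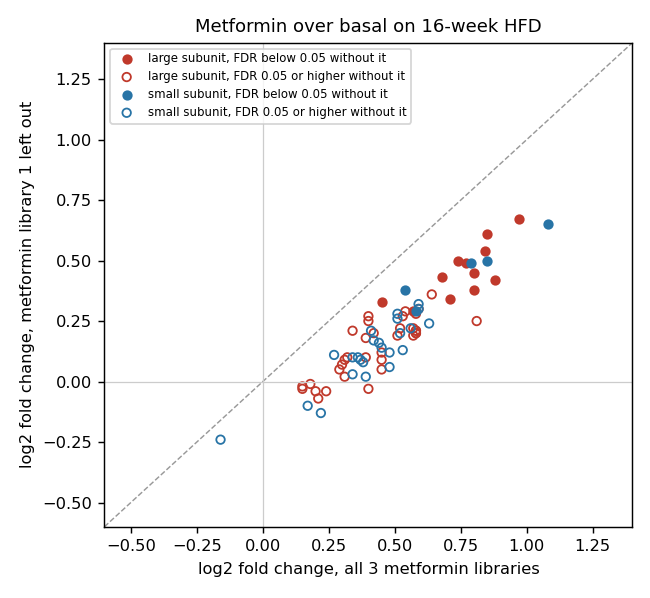
Log2 fold change of each of the 76 genes, metformin over basal on the 16-week HFD, with all 3 metformin libraries (x axis) and with the first left out (y axis), with large-subunit genes red, small-subunit genes blue, and filled points for the 17 genes called without that library. Every point lies below the dashed line of equal values.

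Within bins of exon length, 60 of the 76 members lay above the median of the other genes in their bin on the 16-week HFD, by a median of 0.14 on the log2 scale. On the 6-week HFD 42 did (median difference 0.02) and on chow 32 (median difference -0.03). The values on the 16-week HFD include its first metformin library, and they are not given without it. Between 500 and 1000 bases, where 29 members fall, the members' median log2 fold change on the 16-week HFD was 0.58 and that of the 891 other genes 0.47. Between 1000 and 1500 bases the values were 0.44 for 23 members and 0.32 for 1426 other genes.

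**Figure D4:**
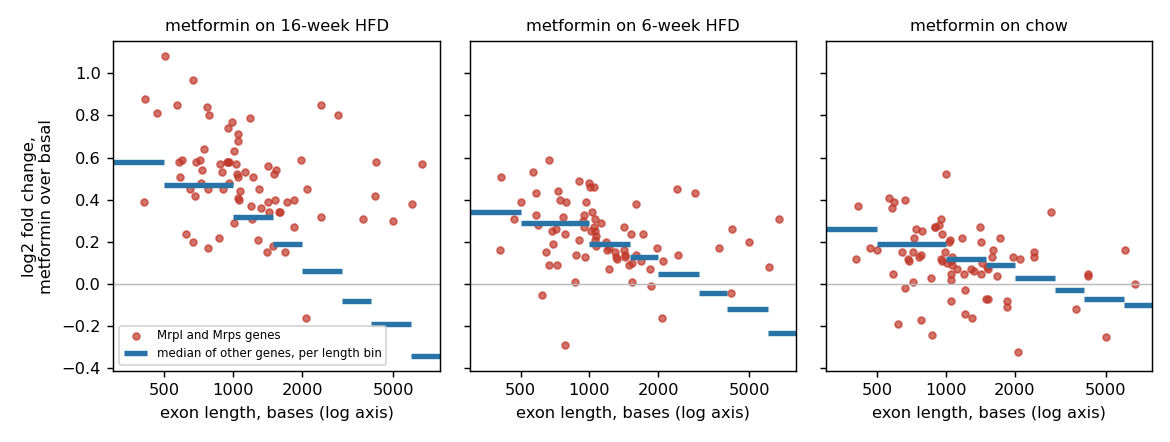
Log2 fold change of each of the 76 genes, metformin over basal, against exon length on a log axis, for the 16-week HFD, the 6-week HFD and chow, with the median of the other tested genes in each length bin as a blue bar. The blue bars step down with length on all 3 diets, from 0.58 to -0.34 on the 16-week HFD.

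Other lists of the translation machinery differ from the family in exon length, so each median is given as fitted and with the length and GC trends removed. The members' own medians were 0.50 as fitted and 0.22 with the trends removed. Of 7 mitoribosomal proteins with other symbols 4 were higher (medians 0.42 and 0.31), among them Aurkaip1 (log2 fold change 0.57, adjusted p = 0.00058). Of 13 mitochondrial translation factors 5 were higher (medians 0.28 and 0.17), with the initiation factor genes Mtif3 at 0.52 and Mtif2 at 0.42. Of 20 tested genes of mitoribosome assembly and rRNA modification 7 were higher (medians 0.27 and 0.21), with Ngrn at 0.62 and Gtpbp5 at 0.42.

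Of 16 genes of mitochondrial gene expression and its regulators, whose median exon length is 3709 bases, 5 were higher and 1 lower (median 0.04), and after removal of the trends 6 were higher and none lower (median 0.19). Tfam, which packages mitochondrial DNA, stood at 0.57, Ssbp1, which binds its single strands, at 0.73, and the coactivator gene Ppargc1b at -0.94, the values as fitted. Cytosolic ribosomal protein genes, with a median length of 706 bases, had 65 of 76 higher and 1 lower (median 0.58), and complex I subunit genes, with a median length of 666 bases, had 33 of 36 higher (median 0.59). With the trends removed both lists had a median of 0.23, beside 0.22 for the members. Without the first metformin library, and with the trends kept, they had 35 of 76 higher (median 0.29) and 15 of 36 higher (median 0.27).

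Markers of liver cell types were compared between the same 6 libraries. The summed CPM of 9 hepatocyte markers was 122703 to 143671 in metformin livers, against 91796 to 112593 CPM in basal livers, without overlap. Endothelial markers (6 genes) summed to 158 to 210.3 CPM with metformin, against 211 to 357 CPM without, and markers of Kupffer cells and macrophages (7 genes) to 198 to 214 CPM, against 176 to 329 CPM. Stellate cell markers (6 genes) summed to 202 to 283 CPM with metformin, against 187 to 410.2 CPM without. None of these marker genes was at 0 in all libraries, and the part of cell type shares in the result was not tested. In bulk tissue, more cells of a type and more RNA per cell cannot be told apart.

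On the 6-week HFD fewer members were called with metformin than on the 16-week HFD. The members' median log2 fold change was also smaller there with all libraries kept. Without the first metformin library on the 16-week HFD the medians on both HFDs were alike. Whether the metformin difference differed between these HFDs was not tested. Of the 76 members, 6 (7.89%) were called higher and none lower, against 3.17% of all genes called in either direction and 3.68% of the length class higher. Medians were 0.22 for the members, 0.15 for the length class and 0.20 for the narrower class. Mrpl20 measured 42.2, 43.0 and 42.0 CPM in metformin livers, against 29.3, 28.1 and 27.3 CPM in basal livers. The groups lay far apart relative to their spread, and the log2 fold change was 0.59 (SE 0.13, adjusted p = 0.0104). Mrps16, a small-subunit protein of bacterial descent, measured 25.1, 28.4 and 27.3 CPM in metformin livers, against 15.7, 21.0 and 19.4 CPM in basal livers (log2 fold change 0.53, adjusted p = 0.0368). The other 4 were Mrpl9 (0.38), Mrpl27 (0.44), Mrpl21 (0.48) and Mrpl41 (0.45), all of the large subunit.

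All metformin libraries lay above all basal libraries for 49 of the 76 members on the 6-week HFD, against 16.8% of all genes and 30.0% of the length class. Mrpl20 alone remained called with the length and GC trends removed (log2 fold change 0.37, adjusted p = 0.0286), where 1.71% of all genes were called. Leaving out the first or the third basal library, or the first or second metformin library, left 1 member called, and leaving out the third metformin library left 2. A fit of the 6 libraries alone called 14 members (18.4%), all higher, against 5.03% of all genes. Hepatocyte markers summed to 107724 to 124652 CPM with metformin, against 106852 to 111278 CPM without, and overlapped. Endothelial markers summed to 169.9 to 178 CPM with metformin, against 208 to 222 CPM without, and stellate cell markers to 204 to 286 CPM, against 303 to 359 CPM. Neither of these sums overlapped between the groups, and their part in the result was not tested.

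On chow 1 member was called with metformin, Mrps2, a small-subunit protein with a bacterial counterpart (mm9 chr2:28323586-28326697), and it was lower. It measured 30.7, 31.7 and 32.3 CPM in metformin livers, against 38.7, 41.3 and 38.4 CPM in basal livers. The groups do not overlap, and the log2 fold change was -0.32 (SE 0.08, adjusted p = 0.0352 by edgeR). Stellate cell markers summed to 223 to 271 CPM with metformin, against 293 to 302 CPM without, and markers of pancreatic acinar cells (10 genes) to 8.08 to 91.0 CPM, against 266 to 1650.2 CPM. Neither sum overlapped between the groups, and their part in the result was not tested. With Mrps2 alone, 1.32% of the family was called, against 1.94% of all genes. Medians were 0.12 for the members, 0.10 for the length class and 0.13 for the narrower class. Mrps24, also of the small subunit, had the largest absolute log2 fold change, 0.52, with 44.7, 40.3 and 36.9 CPM in metformin livers, against 30.3, 29.1 and 25.7 CPM in basal livers, and missed the threshold (adjusted p = 0.0543). Mrps2 lost its call when any 1 of the 6 libraries was left out, and without the third metformin library Mrps24 was called instead. All metformin libraries lay above all basal libraries for 27 members, against 15.2% of all genes and 23.2% of the length class. They lay below all basal libraries for 6 members, against 12.2% of all genes and 6.67% of the length class.

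The metformin difference was set against that on chow in a test of the interaction. It was larger on the 16-week HFD for 9 members (11.8%) and smaller for none, against 4.96% of all genes called in either direction and 4.98% of the length class. The 9 were Mrpl41 (log2 difference 0.72, SE 0.18, adjusted p = 0.024), Mrps18c (0.91, SE 0.25, adjusted p = 0.0339), Mrps33, Mrps23, Mrpl40, Mrpl39, Mrps22, Mrpl17 and Mrpl21. With the length and GC trends removed 1 of them was still called, Mrpl41 (log2 difference 0.79, adjusted p = 0.0303), against 1.88% of all genes, and Mrps18c was not (0.49, adjusted p = 0.127). With the length trend alone removed 3 members were called, against 4.89% of all genes, and a fit of the compared groups alone called no member and no other gene. No member was called without the first metformin library on the 16-week HFD, the second or the third basal library on that diet, the second basal library on chow, or the first or second metformin library on chow. The count was 2 without the first and 1 without the third basal library on chow. It was 18 without the first basal library on the 16-week HFD (6.63% of all genes), 36 without the second metformin library on that diet (9.9% of all genes) and 31 without the third (10.1% of all genes). Between the 6-week HFD and chow no member differed by edgeR, against 0.0427% of all genes, with 2 members at an unadjusted p under 0.05 (6.29% of all genes) and none by DESeq2. The 2 tests share the chow libraries.

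**Figure D5:**
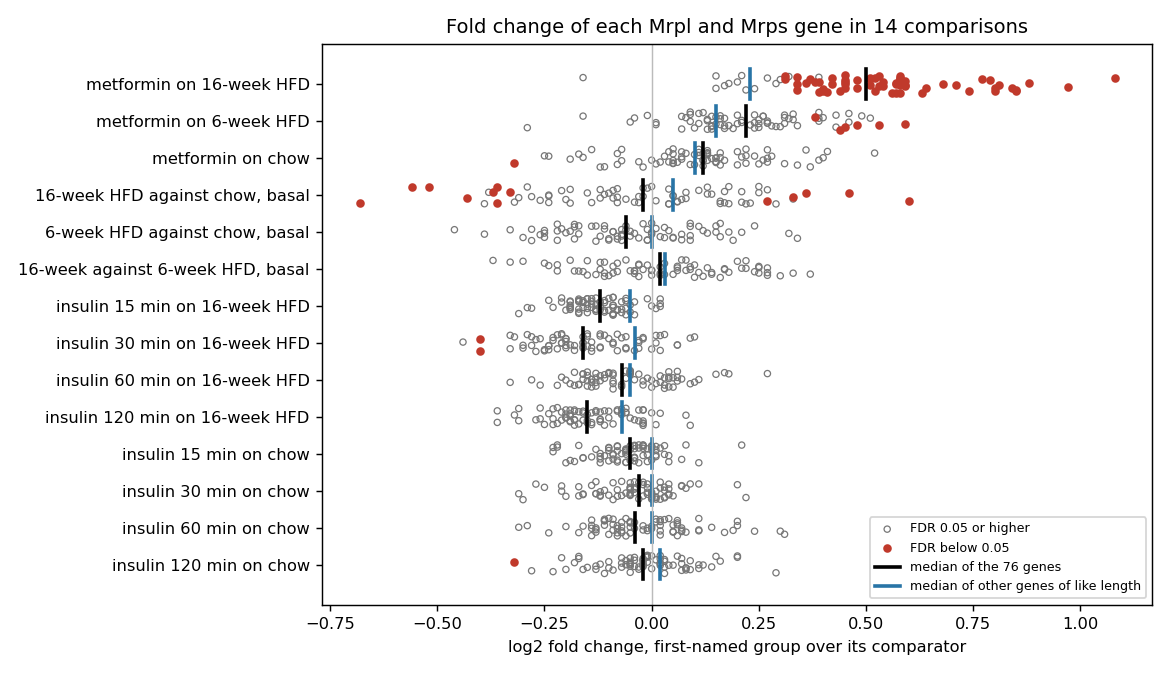
Log2 fold change of each of the 76 genes in 14 comparisons, with filled red points for genes called at a false discovery rate of 0.05, a black bar at the members' median and a blue bar at the median of other genes of similar length. Calls are dense for metformin on the 16-week HFD (62), split in direction for the 16-week HFD against chow (5 higher, 8 lower) and few or absent elsewhere.

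The comparison of the 16-week HFD with chow in basal livers called members in both directions, and a smaller share of them than of all genes. In it 5 members were higher and 8 lower, 17.1% of the family against 32.3% of all genes and 30.2% of the length class, with a median log2 fold change of -0.02. Mrps31, a small-subunit protein that bacteria lack, measured 22.3, 21.1 and 20.1 CPM on the HFD, against 29.4, 33.7 and 27.8 CPM on chow. Its groups do not overlap, and its log2 fold change was -0.52 (SE 0.11, adjusted p = 0.000315). Mrpl47 had the largest fall, with 9.27, 7.42 and 6.35 CPM on the HFD, against 12.4, 11.5 and 13.0 CPM on chow (log2 fold change -0.68, SE 0.18, adjusted p = 0.00295).

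The other lower genes were Mrpl15 (-0.56), Mrps33 (-0.43), Mrpl17 (-0.37), Mrps10 (-0.36), Mrps22 (-0.36) and Mrps23 (-0.33). Among the higher genes Mrps25 led, with 12.6, 9.75 and 9.97 CPM on the HFD, against 7.52, 7.21 and 6.58 CPM on chow (log2 fold change 0.60, adjusted p = 0.00136), and its exons overlap Nr2c2. The others were Mrpl23 (0.46), Mrps12 (0.36), Mrpl38 (0.33) and Mrpl10 (0.27). Mrpl38 was called although its groups overlap, with 57.4, 45.9 and 40.1 CPM on the HFD, against 41.7, 37.0 and 35.6 CPM on chow, and its log2 fold change was -0.06 with both trends removed and the first libraries on the 16-week HFD left out. Leaving out the second HFD library, the second chow library or the third chow library left 6 members called. Once length and GC trends had been removed, 6 were higher and 13 lower (25.0% called), against 30.8% of all genes called. Without the first libraries of the basal and metformin groups on the 16-week HFD 3 were higher and 22 lower (32.9% called), against 34.1% of all genes. Mrps31, Mrpl47, Mrps33 and Mrps25 kept their direction and their call in all 16 alternatives. Pancreatic acinar markers summed to 9.66 to 153 CPM on the 16-week HFD, against 266 to 1650.2 CPM on chow, without overlap. The other marker sums overlapped, and the part of the acinar markers in the result was not tested. Cytosolic ribosomal protein genes had 31 of 76 lower and none higher (median -0.25). Gabpb1, a subunit gene of the ETS-family factor GABP, was lower at -0.80 (adjusted p = 1.01e-05 by edgeR). It is 1 of 16 tested genes of mitochondrial gene expression and its regulators, and the others are not given for this comparison. Any part of Gabpb1 in these differences was not tested.

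The 6-week HFD against chow called no member by edgeR, against 11.0% of all genes and 10.4% of the length class, with none by DESeq2. At an unadjusted p under 0.05 there were 10 members (13.2%), against 24.6% of all genes. The largest absolute log2 fold changes were those of Mrpl47 (-0.46, adjusted p = 0.081) and Mrpl15 (-0.39, adjusted p = 0.0712), both also lower on the 16-week HFD, and the 2 comparisons share the chow libraries. Mrpl47 measured 9.24, 8.33 and 9.31 CPM on the 6-week HFD, against 12.4, 11.5 and 13.0 CPM on chow, with no overlap. With both trends removed 6 members were lower (7.89%), against 14.9% of all genes called and 9.23% lower. A fit of the 6 libraries alone called 2 higher and 8 lower (13.2%), against 15.5% of all genes. Without the third library of the 6-week HFD 2 were called (2.63%), against 9.13% of all genes. Pancreatic acinar markers summed to 12.9 to 127 CPM on the 6-week HFD, against 266 to 1650.2 CPM on chow. Stellate cell markers summed to 303 to 359 CPM, against 293 to 302 CPM on chow. Cholangiocyte markers summed to 10.2 to 11.0 CPM, against 7.17 to 9.83 CPM on chow. None of these sums overlapped between the groups, and their part in the result was not tested. The 16-week against the 6-week HFD called no member by edgeR and 1 by DESeq2, against 10.2% of all genes and 8.69% of the length class. At an unadjusted p under 0.05 there were 9 members (11.8%), against 25.4% of all genes. Its largest absolute changes were those of Mrps34 (0.37) and Mrpl32 (-0.37), neither of which passed the test. Without the first basal library on the 16-week HFD 1 member was called.

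Insulin was accompanied by few calls in the family. On the 16-week HFD the group sums were 1940.3 ± 199 CPM in basal livers (SD, n = 3), 1781 ± 93.4 at 15 min (n = 3), 1729 ± 100.4 at 30 min (n = 6), 1843 ± 114 at 60 min (n = 3) and 1753 ± 41.2 at 120 min (n = 3). On chow they were 1991 ± 73.2 CPM in basal livers, 1923 ± 25.1 at 15 min, 1940.5 ± 107 at 30 min, 1976 ± 23.8 at 60 min and 1966 ± 17.9 at 120 min (SD, n = 3 each).

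At 30 min on the 16-week HFD 2 members were lower and none higher by edgeR (2.63%), against 3.55% of all genes and 3.82% of the length class. Mrpl38, a large-subunit protein that bacteria lack, measured 35.0 to 40.6 CPM with a median of 35.4 in the 6 insulin livers, against 57.4, 45.9 and 40.1 CPM in basal livers (log2 fold change -0.40, SE 0.11, adjusted p = 0.0361). Mrps27 measured 12.5, 10.9 and 11.6 CPM in the first 3 insulin livers and 16.8, 15.9 and 15.7 CPM in the last 3, against 20.9, 19.0 and 15.2 CPM in basal livers (log2 fold change -0.40, SE 0.12, adjusted p = 0.0497). Both pairs of groups overlap, and for Mrps27 the first 3 insulin libraries lay below every basal library and the last 3 did not. No member was called without the first or second basal library or without the first, the second or the third 30-min library. The count was 1 without the fourth 30-min library and 5 without the third basal library. The last 3 of the 6 libraries differed from the first 3 in the trend with GC content, with Spearman coefficients of -0.22 to -0.13, against 0.19 to 0.22 for the first 3. With those last 3 left out 10 members were lower (13.2%), against 12.4% of all genes called. After removal of both trends 9 were lower (11.8%), against 5.77% of all genes called and 4.51% lower.

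At 15, 60 and 120 min on the 16-week HFD no member was called, against 0%, 0.00711% and 0% of all genes, and at an unadjusted p under 0.05 there were 1, 2 and 8 members, against 5.27%, 7.33% and 8.36% of all genes, with none by DESeq2. On chow Mrps2 was lower at 120 min, 1.32% of the family against 5.08% of all genes and 3.68% of the length class. It measured 38.7, 41.3 and 38.4 CPM in basal livers, 34.0, 35.8 and 38.2 at 15 min, 39.8, 36.7 and 38.3 at 30 min, 36.5, 40.7 and 35.7 at 60 min, and 33.5, 29.5 and 32.1 at 120 min. The last group does not overlap the basal one (log2 fold change -0.32, SE 0.08, adjusted p = 0.0192), and no member was called without the second basal or the second or the third 120-min library. This comparison and that of metformin on chow share the basal libraries. At 15, 30 and 60 min on chow no member was called, against 1.13%, 0.0711% and 1.39% of all genes, with 1, 3 and 2 members at an unadjusted p under 0.05 (9.73%, 7.46% and 12.8% of all genes) and none by DESeq2. The insulin response over the 4 times together did not differ between the 16-week HFD and chow for any member by edgeR, against 0.263% of all genes, with 2 members at an unadjusted p under 0.05 (14.2% of all genes) and none by DESeq2.

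The members varied together across libraries. The median Spearman coefficient between pairs of members was 0.47 over the 45 libraries and 0.43 for deviations from the group means, values which share the libraries' depth and length trends. Group means on the log2 scale spanned 0.37 for Mrpl42, 0.38 for Mrpl37 and 0.38 for Mrps2, the narrowest, and 1.21 for Mrps25, 1.13 for Mrpl20 and 1.10 for Mrpl23, the widest. Mrps2 was highest in basal livers on chow. Mrpl42, Mrpl37, Mrps25, Mrpl20 and Mrpl23 were highest in metformin livers on the 16-week HFD. There the first library led for each of these genes. Mrpl42 measured 44.9, 27.8 and 30.1 CPM in that group, and Mrps25 19.3, 10.7 and 12.1 CPM, so the spans include that library.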

How the data were processed

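Liver polyA RNA was sequenced in 45 libraries of 14 groups, at 18.2 to 50.3 M counted reads per library. The authors aligned reads to mm9 with TopHat 1.4.0 and counted them with HTSeq, per the submitters' processing notes. The deposited counts are raw reads per gene. The deposited normalized read counts, a signal scaled between libraries, come from DESeq2 1.0.18 per the submitters' processing notes, and were used in an alternative only. The deposited name of these values also includes CQN, so a correction beyond scaling between libraries may already be in them. The deposited gene models, with other annotation fields, gave exon lengths. Members and gene lists were chosen with earlier results of these data known.

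Counts were tested with edgeR 4.0.16 in R 4.3.3 (quasi-likelihood F test, TMM scaling, minimum count 10, all groups in 1 fit), with Benjamini-Hochberg adjustment over 14067 genes at a false discovery rate of 0.05. CPM used TMM library sizes, and log values a prior count of 2. Trends in length and GC content were splines with 4 degrees of freedom per library. Genes named were the up to 5 called in each direction with the smallest adjusted p at a mean of 5 CPM or more and the 2 with the largest absolute change (up to 2 called for insulin and interactions), the extremes of level, range and length, and members sharing sequence. The other genes in a count of calls were named after their values were seen. Alternatives used DESeq2 1.42.0, limma 3.58.1 on log2 of the deposited values with a pseudocount of 1, other filters, scalings and sample sets. The steps were checked on simulated data.

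Same-numbered libraries deviated together in the metformin comparisons on the 6-week HFD (correlations 0.41, 0.16 and 0.30) and the 16-week HFD (0.24, 0.15 and 0.12). This pairing comes from the data and not from a label.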

Additional observations from a re-analysis of the deposited data

Results flagged for a closer look

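Among 42 values checked in the group of 6 libraries, 30 min of insulin on the 16-week HFD, 3 had 1 library far from the other 5, where chance gives about 1 in 20. These were Mrpl23 at 19.2 CPM in the fifth library, Mrpl24 at 22.5 CPM in the third and Mrpl38 at 40.6 CPM in the sixth. The difference between metformin and basal livers was larger on the 16-week HFD than on chow for 9 members by the interaction test, among them Mrpl41 (log2 difference 0.72) and Mrps18c (log2 difference 0.91). No member was called in that test without the first metformin library on the 16-week HFD.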

How the results depend on the processing

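Counts of members called moved with the setting as follows, and the cause was not tested. For metformin on chow (1), DESeq2, the length trend removed, the length and GC trends removed, the compared groups alone, and the replicate block with both trends removed gave 2 each, no filter gave 0, and leaving out 1 library gave 0 to 1. For metformin on the 6-week HFD (6), removing the length trend or both trends gave 1, no filter 2, the compared groups alone 14, the block with both trends removed 2, and leaving out 1 library 1 to 4. For metformin on the 16-week HFD (62), the length trend removed gave 28, both trends removed 30, the block with both trends removed 32, and the compared groups alone 0. Leaving out the first basal and metformin libraries gave 31, or 12 with both trends removed, leaving out the first metformin library with both trends removed gave 7, and leaving out 1 library gave 17 to 70. For the 16-week HFD against chow (13), the first libraries left out gave 25, or 22 with both trends removed, the length trend removed 24, and 1 library left out 6 to 14. Mrpl38 there reversed to a log2 fold change of -0.06 with both trends removed and the first libraries left out. For the 6-week HFD against chow (0), both trends removed gave 6, also with the block, the length trend removed 5, the compared groups alone 10, and 1 library left out 0 to 2. For the 16-week against the 6-week HFD (0), DESeq2 and the replicate block gave 1 each, the length trend removed 3, the first libraries left out 6, or 1 with both trends removed, and 1 library left out 0 to 1. For 120 min of insulin on chow (1), the compared groups alone gave 0 and 1 library left out 0 to 1. For 30 min of insulin on the 16-week HFD (2), the last 3 libraries left out gave 10 and DESeq2 5. The deposited normalized values and the first libraries left out gave 0 there, as did the compared groups alone. The length trend removed gave 14, both trends removed 9 and no filter 1. The block gave 11, the block with both trends removed 28, and 1 library left out 0 to 5. The last 3 libraries have replicate numbers that no other group has, so the block takes them out of that comparison. For the metformin difference on the 16-week HFD against chow (9), DESeq2 gave 17, the first libraries left out 2, the length trend removed 3, and both trends removed 1, also with the block. It gave 0 for the compared groups alone and for both trends removed without the first metformin library or without both first libraries, and 0 to 36 with 1 library left out. The replicate block left 62 members called for metformin on the 16-week HFD and 6 on the 6-week HFD. In these comparisons same-numbered libraries deviated together, although no label pairs them. The block fits 1 effect per number for all groups together, so it cannot test pairing within a comparison. In the other comparisons the libraries share only a number.

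The settings that remove both trends and also leave out the first metformin library, or both first libraries, were chosen after seeing the data. Over all settings 219 of 305 counts of members stayed within 1.5 times, and 86 did not. The members' median log2 fold change moved in 18 of 262 cases. Of 518 values of named members, 373 kept their direction and side of the threshold, 131 lost the call, 13 gained it and 1 reversed. With 3 libraries in most groups and as few as 79 reads for a member, small differences were not detectable.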
